A study of Caenorhabditis elegans with 15 samples.

Results

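Gene expression in Caenorhabditis elegans after 48 h on sediment of the river Rhine was compared with that after 48 h on sediment of the river Danube. The comparison took the 5 arrays titled Rhine and the 5 titled Danube, 10 of the 15 arrays of the series. The other 5 arrays were of worms on Elbe sediment and entered only the estimate of the spread. The study used Danube as its site of low contamination, and the comparison asks which transcripts differ in worms on Rhine sediment.

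All animals were N2 (Bristol), whole worms of the L4 and young adult stages when they were placed on sediment. A replicate pooled 24 vials, each with 0.5 g of wet sediment, living E. coli as food and 20000 worms. Small larvae were removed by filtering before RNA was taken. From 10 µg of total RNA, cDNA of the sediment sample was labelled with Cy5. On every array it met the same kind of universal reference in Cy3, a pool of RNA of worms from all the sediments and of the laboratory control. The 5 replicates were separate exposures, and the labels do not say that each had its own sediment sample. In the methods of the study the subsamples of a site were combined and homogenized, and the paper calls for replicated sampling per site. As far as the paper describes it, the tests therefore cover repeat exposures to 1 batch of sediment per river. They do not measure the spread between sediment samples of a river. In whole worms, a smaller share of a tissue and less RNA per cell of that tissue cannot be told apart.

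C. elegans takes up sediment compounds partly through the gut, together with its bacterial food, and the intestine is the main site of its detoxification and of its defence against ingested microbes. Cytochrome P450 enzymes oxidise foreign compounds, glutathione and UDP-glucuronosyl transferases couple them to soluble groups, and metallothioneins bind metals. Damaged proteins are marked with ubiquitin and broken down by the proteasome, while collagens form the cuticle that separates the worm from its surroundings.

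On each array a value was log2(Cy5/Cy3) after normalization within the 48 print-tip blocks, here called the log2 ratio. Each channel was also taken alone, as log2 signal relative to the median gene spot of the array. Of 19084 probes, 5347 had spots above the lowest quality grade on at least 3 of 5 arrays in every sediment, and these were tested. The median signal ranged from 1322 to 1984 in Cy5 and from 687 to 1586 in Cy3. On the 5 Danube arrays 52.1% to 61.6% of spots had the lowest grade, and on the 5 Rhine arrays 45.7% to 53.95%. The spread of the log2 ratios before normalization was widest on Danube 2 (SD 1.74) and Rhine 1 (SD 1.86). The tissues of a whole worm were represented, with 21 of 33 muscle genes, 7 of 10 intestine markers, 5 of 6 vitellogenins, 11 of 46 germline and meiosis genes and 5 of 19 neuronal markers among the probes used.

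Far more probes were higher in Rhine than lower, and no single probe passed adjustment. At an adjusted p under 0.05 (limma, Benjamini-Hochberg) 0 of 5347 probes (0%) differed, and the lowest adjusted p was 0.263. An unadjusted p under 0.05 was reached by 689 probes. Past the thresholds of the study's methods, which ask for a change of 1.4-fold upwards or 0.7-fold downwards and an unadjusted p below 0.05, 608 probes were higher (11.4%) and 77 were lower (1.44%). The median difference over all 5347 probes was 0.24 on the log2 scale. The 5 Rhine arrays lay above all 5 Danube arrays for 100 probes (1.87%) and below them for 13 (0.243%).

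The excess of higher probes was examined by channel, because a ratio rises when the sample signal rises and also when the reference signal falls. In Cy5 after normalization, 242 probes were higher (4.53%) and 240 were lower (4.49%), with a median difference of -0.011. In Cy3 before normalization, 41 probes were higher (0.767%) and 1049 were lower (19.6%), with a median of -0.45. The normalization leaves the mean of both channels on a spot as it was and shifts the channels by equal amounts in opposite directions, so the share of each channel in the ratio depends on it. Before that step the median difference in Cy5 was 0.34, with 669 probes higher and 75 lower. After it, 69 probes were higher and 413 lower in Cy3, with a median of -0.19.

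**Figure D1:**
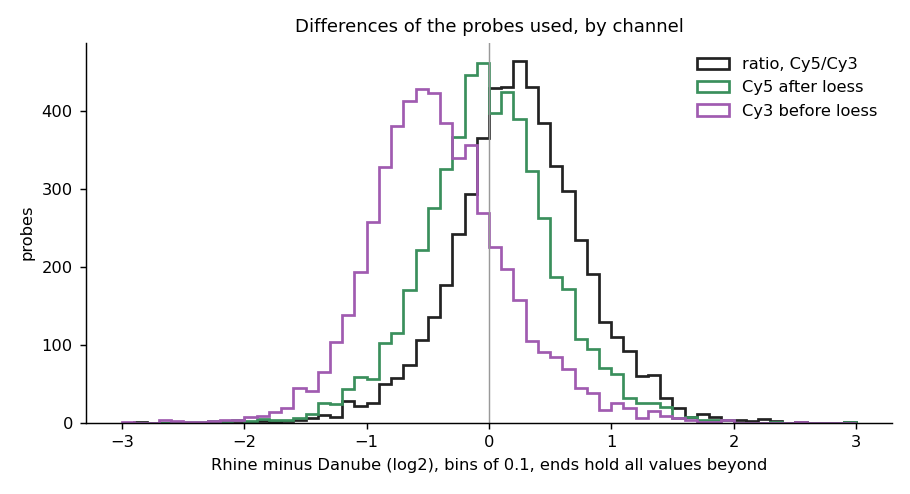
Rhine minus Danube difference (x axis, log2, in bins of 0.1) for the 5347 probes used, with the number of probes on the y axis, for the ratio, the sample channel Cy5 and the reference channel Cy3. The ratio is shifted to the right of 0 (median 0.24). Cy5, taken after normalization, is centred near 0 (median -0.011), and Cy3, taken before it, lies to the left (median -0.45).

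The same pattern stood in the medians of single arrays. Over the probes used, the median log2 ratio was 0.057, -0.24, 0.070, -0.018 and 0.035 on Danube arrays 1 to 5 and 0.27, 0.041, 0.15, 0.25 and 0.10 on Rhine arrays 1 to 5. Danube 2 was lowest and Rhine 1 and 4 were highest, and Rhine 2 lay within the range of the Danube arrays. The difference of the means was 0.18 (exact permutation test, two-sided, p = 0.0238, 0.0952 after Benjamini-Hochberg adjustment over 9 array measures, with 0.00794 the smallest p that 5 against 5 arrays allow). The median Cy5 after normalization was 0.96, 0.67, 0.81, 0.69 and 1.05 in Danube and 0.91, 0.77, 0.86, 0.86 and 0.85 in Rhine, a difference of 0.015 (exact permutation p = 0.841). The median Cy3 before normalization was 0.75, 1.33, 0.52, 0.85 and 0.90 in Danube and 0.43, 0.59, 0.39, 0.26 and 0.51 in Rhine. The difference was -0.44 (exact permutation p = 0.0159, adjusted 0.0952). Only Danube 3 lay within the range of the Rhine arrays in Cy3.

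**Figure D2:**
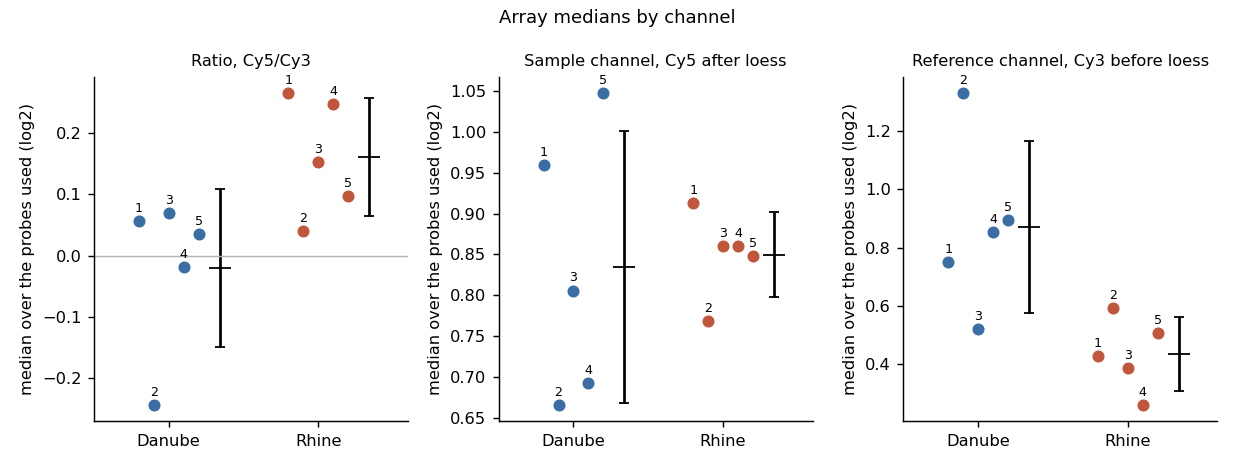
Median over the 5347 probes used on each array (points, numbered by replicate) for the log2 ratio, Cy5 after normalization and Cy3 before it, all in log2 units, with the mean and SD of 5 arrays beside them. The Rhine arrays tend to lie higher in the ratio, overlap with Danube in Cy5 and lie lower in the Cy3 reference.

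Of the 608 probes higher in the ratio, 113 were also higher past the thresholds in Cy5, 1 was lower there and 528 had the same sign. In Cy3 before normalization, 273 of the 608 were lower past the thresholds. Their median difference was 0.97 in the ratio, 0.46 in Cy5 and -0.76 in Cy3. The 77 lower probes differed from this in their channels. Of them 34 were also lower in Cy5 and 4 were higher in Cy3, with medians of -0.99, -0.75 and 0.22. As a share, 18.6% of the higher and 44.2% of the lower probes passed in Cy5 as well. These shares are counts within the same arrays, and the difference between them was not tested.

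A pair of genes stood out in the single channels. rif-1.2 was the only probe with an adjusted p under 0.05 in Cy5 after normalization, with a difference of -2.47 (SE 0.34, adjusted p = 0.00435). Its Cy5 values were 2.36, 2.16, 2.63, 2.80 and 3.18 in Danube and 0.15, -0.22, 0.25, -0.18 and 0.81 in Rhine. Its Cy3 values were 2.15, 2.62, 2.19, 2.81 and 3.05 in Danube and -0.43, -0.74, 0.38, 0.27 and 0.13 in Rhine, although that channel held the reference. The groups therefore did not overlap in either channel, the difference in Cy3 was -2.64 (adjusted p = 0.00721), and the log2 ratio differed by only -0.13 (adjusted p = 0.822). timm-17B.1, which encodes a subunit of the inner mitochondrial membrane translocase, was the other probe called in Cy3. Its Cy3 values were 3.75, 5.23, 4.10, 4.79 and 4.52 in Danube and 0.88, 1.47, 2.26, 0.35 and 1.64 in Rhine, a difference of -3.16 (adjusted p = 0.00721). Its Cy5 values were 3.92, 3.95, 4.30, 3.90 and 4.77 in Danube and 2.18, 1.90, 3.23, 0.31 and 2.52 in Rhine. The groups were thus apart in the sample channel too. In the ratio timm-17B.1 differed by 0.65 (adjusted p = 0.394). Both genes had less signal on the Rhine than on the Danube arrays in the sample channel and in the reference channel, and the cause was not tested.

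How far the excess rested on the widest arrays was measured by leaving them out. Without Danube 2, 394 probes were higher and 88 lower, and without Rhine 1, 461 and 83. Without both, 336 were higher and 96 lower, with a median difference of 0.14, and the mean difference of the array medians was 0.099 (exact permutation p = 0.0857). Over all single arrays left out in turn, the higher count ran from 394 to 664, the lower count from 74 to 99 and the median from 0.17 to 0.28. Array weights, which give less weight to arrays far from their group, gave 362 higher and 86 lower. Rhine 1 also had the brightest reference channel, and Danube 2 the highest median of the probes used in Cy3.

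Centring moved the balance further. When each array was centred on the probes used instead of on all gene spots, 317 probes were higher and 192 lower, so 62.3% of the probes past the thresholds were higher, against 88.8% with the main centring. Normalization fitted on the probes used alone gave 320 and 177. With median centring and no normalization by intensity, 1766 were higher and 45 lower, with a median of 0.80. The medians of the probes used lay above those of all gene spots in both channels on all 10 arrays. By mean intensity, 135 of the dimmest 1783 probes were higher and 36 lower, 219 and 26 of the 1782 in the middle, and 254 and 15 of the brightest 1782. Along these classes the median difference in the ratio was 0.17, 0.27 and 0.27. In Cy3 before normalization it was -0.25, -0.42 and -0.62, and in Cy5 after normalization -0.054, 0.031 and -0.00073. The channel values come from different steps, so they do not add up to the ratio or show the share of each channel.

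**Figure D3:**
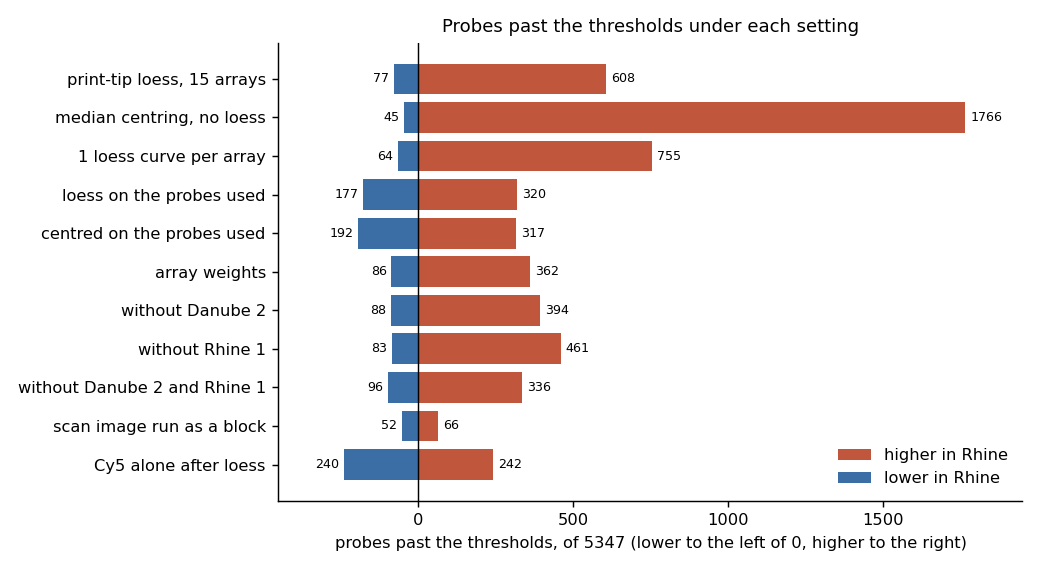
Number of probes of 5347 past the thresholds (x axis) that were higher in Rhine, to the right of 0, or lower, to the left, under 11 ways of processing (y axis). The higher count runs from 1766 with median centring to 66 with the scan image run as a block, and the sides are level (242 and 240) in Cy5 alone.

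The numbers of the scan images in the file headers fell into separate runs. Danube 1 to 4 carried numbers of the first run, and Danube 5 and all Rhine and Elbe arrays carried numbers of the second. With this run as a block, where the comparison rests on Danube 5 as the only Danube array of the second run, 66 probes were higher and 52 lower. Within the second run, without a test, 1401 of 5347 probes were at least 1.4-fold higher in the Rhine mean than in Danube 5 and 607 were at most 0.7-fold, with a median difference of 0.17. Against Danube 1 to 4 these counts were 1826 and 425, with a median of 0.26. In Cy5 after normalization the median difference from Danube 5 was -0.27, and in Cy3 before normalization it was -0.57. For rif-1.2 and timm-17B.1, Danube 5 lay with the other Danube arrays in both channels.

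The genes that follow are described by their ratio and by Cy5, the channel that held the sediment sample, with values in the order of replicates 1 to 5. For them Cy5 is taken after normalization and Cy3 before it. Every adjusted p given for a gene comes from limma over all 5347 probes unless another number of probes is given. In 3 probes the groups were apart in both the ratio and Cy5, in 1 with Rhine above (0.0187%) and in 2 with Rhine below (0.0374%), and all 3 passed the thresholds. cat-4 encodes GTP cyclohydrolase I, which starts the synthesis of the cofactor needed to make serotonin and dopamine. Its log2 ratios were -0.018, 0.75, 0.42, 0.95 and 0.67 in Danube and -0.32, -0.52, -0.48, -0.39 and -0.53 in Rhine. Its Cy5 values were 2.33, 3.42, 3.11, 2.92 and 3.75 in Danube and 2.32, 2.13, 1.82, 1.07 and 1.79 in Rhine. All 5 Rhine arrays were below all 5 Danube arrays in both, by the narrowest of margins in Cy5, where Danube 1 (2.33) and Rhine 1 (2.32) nearly met. The difference was -1.003 (SE 0.22, adjusted p = 0.263), and in Cy5 -1.28 (SE 0.37, adjusted p = 0.414). Over the 2213 probes with good spots on all 15 arrays the adjusted p of cat-4 was 0.0465, and over the 555 probes with a confidence of at least 0.5 it was 0.0164.

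C02E7.7, whose function is not given here, had log2 ratios of 0.24, 0.49, 0.48, 0.88 and 0.29 in Danube and -0.29, -0.18, 0.079, -0.30 and 0.037 in Rhine. The difference was -0.61 (SE 0.21, adjusted p = 0.338), and -0.95 in Cy5. It passed the thresholds with every array left out except Danube 4 (-0.51). ife-5, which encodes a cap-binding translation initiation factor of the eIF4E family, was the gene with Rhine above. Its log2 ratios were -1.34, -2.30, -0.90, -1.47 and -1.20 in Danube and 5.00, -0.49, -0.35, 0.12 and -0.30 in Rhine. A single array, Rhine 1, set much of the difference of 2.24 (SE 0.80, adjusted p = 0.338), which was 1.19 without it. In Cy5 the difference was 1.51 (SE 0.39, adjusted p = 0.381).

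In addition, the 10 higher and 10 lower named genes with the lowest p among those past the thresholds in both the ratio and Cy5 were taken, a choice made after the values were seen, with cat-4 and C02E7.7 again among the lower. The largest difference in the ratio was that of irg-1, an infection response gene that worms induce on pathogenic Pseudomonas. Its spots were above the lowest grade on only 3 of 5 Danube and 3 of 5 Rhine arrays, the fewest that the filter allowed. Its log2 ratios were -0.33, -5.75, -2.16, -1.34 and -1.37 in Danube and 2.49, 5.29, 0.17, 0.90 and 3.25 in Rhine. In Cy5 they were 0.39, -3.73, -1.69, -0.29 and -0.28 in Danube and 0.61, 1.24, 0.35, 0.57 and 1.34 in Rhine. The ratios did not overlap, and the low value of Danube 2 (-5.75) and the high value of Rhine 2 (5.29) stretched the difference, 4.61 (SE 1.04, adjusted p = 0.263). In Cy5 the difference was 1.94 (SE 0.64, adjusted p = 0.451), and only Danube 1 lay among the Rhine arrays.

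spp-8 encodes a saposin-like protein, a family with antimicrobial members. Its log2 ratios were -0.11, -2.38, -1.64, -0.67 and -0.031 in Danube and 2.10, -0.014, 0.76, 1.85 and 1.73 in Rhine, a difference of 2.25 (SE 0.50, adjusted p = 0.263). The groups just failed to overlap in the ratio, and in Cy5, with a difference of 1.28, the highest Danube array (2.73) lay above 4 of 5 Rhine arrays. math-26, of the MATH domain family, had log2 ratios of -0.89, -2.12, -0.51, -1.13 and -0.25 in Danube and 0.55, -0.12, 0.74, 0.57 and 0.21 in Rhine. It differed by 1.37 (SE 0.31, adjusted p = 0.263) and by 0.96 in Cy5, and with a confidence of at least 0.5 its adjusted p was 0.0164. fbxb-58, an F-box gene, differed by 2.01 in the ratio and 1.44 in Cy5, and the groups overlapped in both. In the ratio Rhine 2 (-0.92) lay below Danube 5 (-0.88), and Danube 2 was lowest at -4.42. The others of this set on the higher side were piit-1 (1.28 in the ratio, 0.87 in Cy5), F57G12.2 (1.56, 1.49), C01G10.1 (2.12, 1.49), math-32 (0.76, 0.84), C39B5.5 (1.01, 0.97) and calu-1, for the calcium-binding protein calumenin (1.01, 0.68).

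On the lower side, clec-50, a C-type lectin gene, had log2 ratios of 0.59, 0.17, 0.59, 0.63 and 0.30 in Danube and -1.40, 0.11, -0.39, 0.22 and -0.62 in Rhine. The highest Rhine array (0.22) lay above the lowest Danube array (0.17), and the difference was -0.87 (SE 0.28, adjusted p = 0.338), with -1.12 in Cy5. nhr-172, a nuclear hormone receptor gene, had log2 ratios of 1.16, 0.24, 0.91, 0.31 and 1.82 in Danube and -0.44, 0.19, -0.079, 0.39 and -1.74 in Rhine. Its difference was -1.23 (SE 0.39, adjusted p = 0.338), with -0.91 in Cy5, and the groups overlapped in both. Only 3 of 5 Danube and 3 of 5 Rhine arrays had spots above the lowest grade for nhr-172. W02G9.4 had the lowest difference of any probe past the thresholds, -2.82 in the ratio and -1.64 in Cy5, and its Rhine arrays ran from -3.86 to 0.31. The claudin-like gene clc-3 was lower by more in Cy5 (-2.37) than in the ratio (-0.91), and its reference channel was lower as well (-1.59). C17F4.7 (-0.91 in the ratio, -1.06 in Cy5), sru-43, a serpentine receptor gene (-1.16, -0.94), JC8.7 (-0.80, -1.02) and exc-13 (-2.27, -1.83) completed the set of 10 with cat-4 and C02E7.7.

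**Figure D4:**
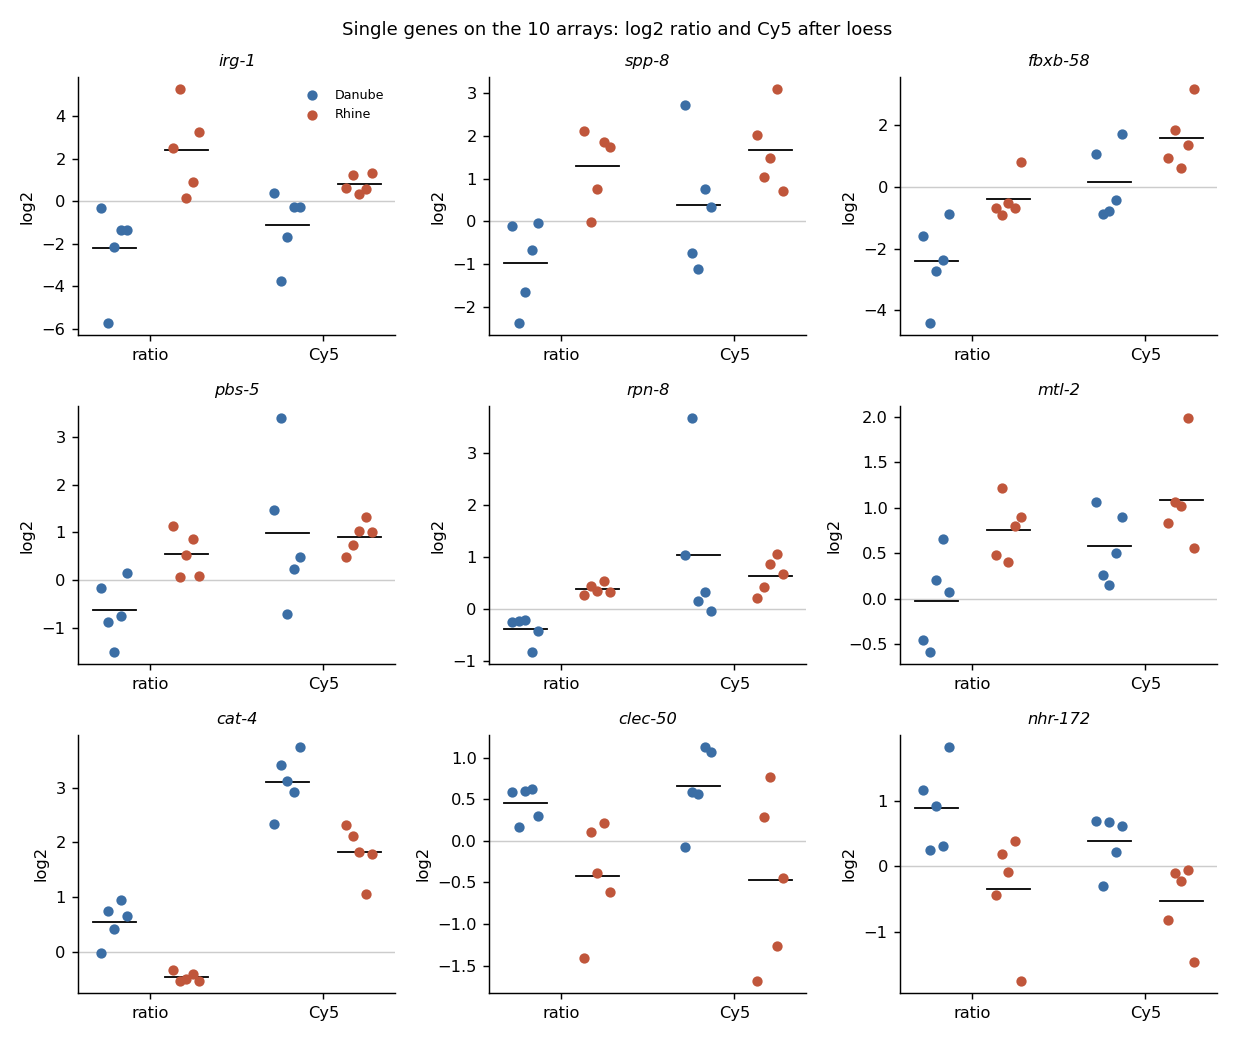
Log2 ratio and Cy5 after normalization (y axis, log2, a scale for each gene) of 9 genes on the 5 Danube and 5 Rhine arrays, with a bar at each mean. cat-4 was lower in Rhine in both measures, whereas the proteasome genes pbs-5 and rpn-8 were higher in the ratio and overlapped in Cy5.

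Where fewer probes were tested, a few passed adjustment in the ratio. Among the 2213 probes with good spots on all 15 arrays 6 did, cat-4 and C17F4.7 with Rhine lower, and piit-1, srh-251, W01C9.1 and Y38C9A.1 with Rhine higher (adjusted p from 0.0338 to 0.0465). For Y38C9A.1 the log2 ratios were -0.39, -1.20, -0.12, -0.18 and 0.013 in Danube and 1.25, 0.74, 0.76, 1.599 and 0.94 in Rhine. For srh-251, a chemoreceptor gene, they were -0.10, -1.26, -1.002, -0.80 and -0.53 in Danube and 0.64, 0.21, 0.50, 0.54 and 0.71 in Rhine. The groups of both genes were apart in the ratio and overlapped in Cy5. For Y38C9A.1 the Cy5 values were 2.03, 1.25, 3.06, 2.08 and 2.15 in Danube and 2.67, 3.10, 2.56, 2.68 and 2.81 in Rhine, where only Danube 3 lay within Rhine. For srh-251 Danube 1 (2.55) lay above every Rhine array in Cy5. The groups of W01C9.1 overlapped in Cy5 as well. Among the 555 probes with a confidence of at least 0.5, nasp-2 (adjusted p = 0.0372), math-26 and math-32 passed with Rhine higher and cat-4 with Rhine lower. nasp-2, a homologue of the histone chaperone NASP, had log2 ratios of -1.10, -1.599, -1.28, -1.28 and -0.88 in Danube and -0.70, -0.31, -0.036, -0.38 and 0.57 in Rhine. All Rhine arrays lay above all Danube arrays in the ratio, and overlapped in Cy5.

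The function groups were described by their genes in use, 5299 genes in all, of which 605 (11.4%) were higher and 74 lower in the ratio, with a median of 0.24. Since the median of all genes lay above 0, a group is read against it and not against 0. In the same way, a count of higher genes is read against the 11.4% of all genes. A count near that share says nothing about the group itself. The median of 35 of the 36 groups was above 0 in the ratio, and that of 7 intestine markers, of which 1 was higher and 1 lower, was -0.12. In Cy5 the median of all genes was -0.010, and that of the groups ran from -0.29 to 0.51. There 242 of the 5299 genes were higher and 239 lower, and the Cy5 counts of a group are read against these.

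**Figure D5:**
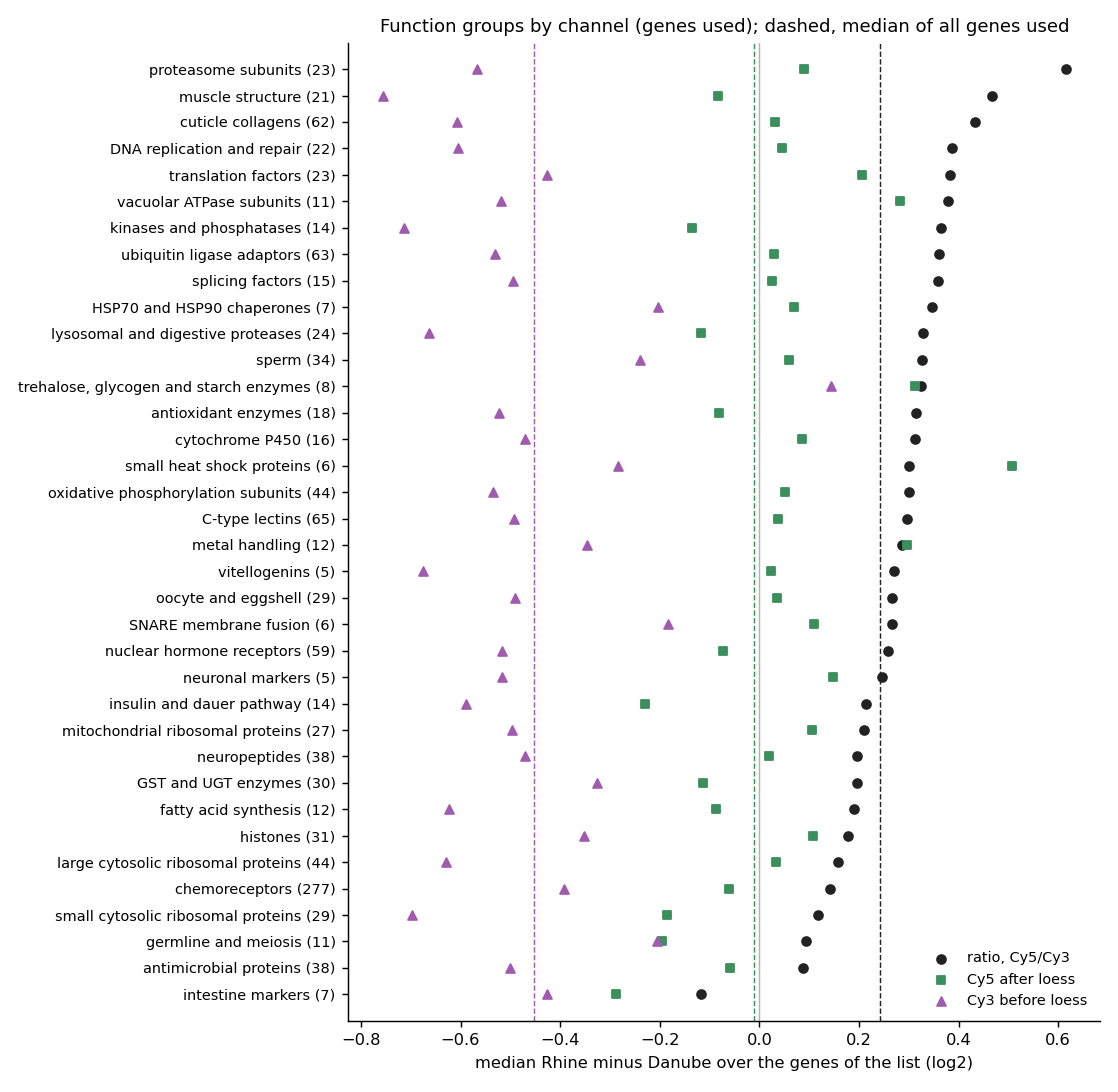
Median Rhine minus Danube difference (x axis, log2) over the genes in use of 36 function groups (y axis, number of genes in brackets) in the ratio, Cy5 after normalization and Cy3 before it, with dashed lines at the medians of all genes in use. The proteasome group is highest in the ratio (0.62) and near the median of all genes in Cy5 (0.090).

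Protein degradation held the group with the highest median. Of 34 proteasome genes on the array 23 were in use, and 9 of them (39.1%) were higher and 0 lower, with a median of 0.62. In Cy5 the median was 0.090, with 0 genes past the thresholds in either direction, and 8 of the 23 were lower in Cy3. Without Danube 2 and Rhine 1 there were 7 higher, and after centring on the probes used 7. With the scan image run as a block there were 0, at a median of 0.45.

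pbs-5 encodes a catalytic beta subunit of the core particle. Its log2 ratios were -0.16, -0.88, -1.501, -0.73 and 0.15 in Danube and 1.14, 0.070, 0.54, 0.87 and 0.088 in Rhine. In Cy5 they were 1.48, 3.39, -0.69, 0.23 and 0.49 in Danube and 0.48, 0.73, 1.03, 1.31 and 1.01 in Rhine. Danube 2, low in the ratio, was the highest of all arrays in Cy5, and the difference was 1.17 (SE 0.32, adjusted p = 0.338) in the ratio and -0.068 in Cy5. rpn-8, of the lid of the regulatory particle, had log2 ratios of -0.26, -0.24, -0.21, -0.84 and -0.44 in Danube and 0.26, 0.43, 0.35, 0.55 and 0.33 in Rhine. The groups did not overlap in the ratio, with a difference of 0.78 (SE 0.23, adjusted p = 0.338), yet in Cy5 the difference was -0.39 and in Cy3 -1.38. rpn-10, a ubiquitin receptor of the proteasome, differed by 1.497 (SE 0.45, adjusted p = 0.338), with 0.70 in Cy5.

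Among F-box, MATH and BTB genes, many of which encode adaptors that choose the proteins to be ubiquitinated, 63 of 453 were in use. Of these, 12 (19.05%) were higher and 1 lower, at a median of 0.36, and in Cy5 3 were higher and 3 lower, at 0.030. The higher count was 6 without Danube 2, and 7 were higher and 3 lower without both widest arrays. fbxa-99 had log2 ratios of -0.29, -0.67, 0.11, -0.083 and -0.29 in Danube and 1.56, 1.37, 0.75, 1.24 and 0.086 in Rhine, with only Rhine 5 inside the Danube range, a difference of 1.24 (SE 0.29, adjusted p = 0.295) and 0.65 in Cy5. Of 24 lysosomal and digestive proteases 6 were higher and 2 lower, with 1 higher and 2 lower in Cy5. nep-2, for a neprilysin, passed in both measures (1.07 in the ratio and 1.07 in Cy5). The cathepsin Z genes cpz-1 and cpz-2 differed by 1.35 and 0.99 in the ratio and by 0.84 and -0.15 in Cy5.

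Of 44 genes for the large cytosolic ribosomal subunit 2 (4.55%) were higher, of 29 for the small subunit 3 (10.3%). Of 27 mitochondrial ribosomal genes 3 (11.1%) were higher, against 11.4% of all genes, with 0 lower in each group. Their medians were 0.16, 0.12 and 0.21, against 0.24 for all genes. The side on which they lay of the common shift turned with the setting. After centring on the probes used the medians were -0.024 for the large and -0.063 for the small subunit, against 0.062 for all probes, and with the scan image run as a block 0.29 and 0.32, against 0.17. In Cy5, 4 of the 29 genes of the small subunit were lower and 0 higher, at a median of -0.18. Over all probes 4.49% were lower and 4.53% higher in Cy5. rps-7 had log2 ratios of 0.0054, -1.33, -0.39, 0.065 and 0.031 in Danube and 0.52, 0.55, 0.57, 0.90 and 0.13 in Rhine. Rhine lay above Danube on all arrays, with a difference of 0.86 (SE 0.28, adjusted p = 0.338), and in Cy5 0.74 with overlap. rps-3 differed by 0.80 in the ratio and -0.11 in Cy5, and rpl-9 by 0.96 and 0.50. rps-3 lost the thresholds in 5 of 10 single omissions, Danube 3, Danube 5, Rhine 1, Rhine 3 and Rhine 4 (smallest difference 0.53, without Rhine 1). Of 23 translation factors 5 were higher and 0 lower (median 0.38, 0.21 in Cy5). Without Danube 2 there were 3 higher and without both widest arrays 1. eef-2, the elongation factor that moves the ribosome along, had log2 ratios of 0.26, -0.58, 0.030, -0.050 and 0.18 in Danube and 2.66, 0.20, 1.10, 1.48 and 0.14 in Rhine. Rhine 2 and 5 lay within the Danube range, and the difference of 1.15 (SE 0.40, adjusted p = 0.338) was 0.76 without Rhine 1 and 0.17 in Cy5.

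Energy metabolism gave 6 of 44 oxidative phosphorylation genes higher (13.6%, near the 11.4% of all genes) and 0 lower. The median of the 44 was 0.30, and in Cy5 1 was higher and 2 lower. Without Rhine 4 there were 3 higher. isp-1, the iron-sulphur protein of complex III, did not overlap in the ratio, with a difference of 1.03 (SE 0.29, adjusted p = 0.338), while in Cy5 it differed by -0.036. cox-5A and cox-17, for a subunit and a copper chaperone of complex IV, differed by 0.83 and 0.68 in the ratio and by 0.67 and 0.57 in Cy5. Of 8 genes of trehalose, glycogen and starch metabolism in use, 2 were higher and 1 lower. phkb-1, a regulatory subunit of phosphorylase kinase, had log2 ratios of -0.23, -3.30, -0.17, -0.57 and -1.43 in Danube and 0.99, 0.62, 2.04, 1.47 and 0.26 in Rhine. All Rhine arrays were above all Danube arrays, the lowest being Danube 2 at -3.30. The difference was 2.22 (SE 0.53, adjusted p = 0.315), and 0.86 in Cy5. Only 3 of 5 Danube and 3 of 5 Rhine arrays had spots above the lowest grade for phkb-1. aagr-4, of the acid alpha-glucosidase family, was higher by 0.92 in the ratio and by 1.33 in Cy5. gyg-1, a glycogenin gene, was lower by the ratio, at -0.81, and differed by -0.48 in Cy5. gyg-1 lost the thresholds when Danube 3, Rhine 1 or Rhine 2 was left out (smallest difference -0.49, without Rhine 1). aagr-4 lost the thresholds in 6 of 10 single omissions, Danube 2, Danube 4, Rhine 1, Rhine 3, Rhine 4 and Rhine 5 (smallest difference 0.61, without Danube 4). cox-17 lost the thresholds when Danube 1 or Rhine 2 was left out (smallest difference 0.55, without Rhine 2).

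Cuticle collagens form a large family of structural proteins secreted by the epidermis. Of 62 cuticle collagens in use, out of 160, 14 (22.6%) were higher and 0 lower, at a median of 0.43. In Cy5 1 was higher and 3 were lower, at 0.032, and 19 were lower in Cy3. Without both widest arrays 10 were higher and 1 lower, at a median of 0.18, and after centring on the probes used 8 were higher and 5 lower. With the scan image run as a block 3 were higher, at a median of 0.17, against 0.17 for all probes. col-8 had log2 ratios of -0.20, -0.59, -0.034, -1.15 and -0.13 in Danube and 1.42, 0.12, 0.43, 0.59 and 0.51 in Rhine. The groups were apart, with a difference of 1.04 (SE 0.29, adjusted p = 0.338), and in Cy5 it was 0.41. col-129 and col-119 differed by 1.23 and 0.80 in the ratio and 0.63 and 0.83 in Cy5.

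Of 21 genes in the muscle group 4 were higher (19.05%, against 11.4% of all genes) and 1 lower, at a median of 0.47. In Cy5 0 were higher and 1 lower, and in Cy3 8 were lower. Without Rhine 4 there were 2 higher. unc-15, for paramyosin, had log2 ratios of -0.32, -0.10, -0.21, -0.76 and -0.24 in Danube and 2.44, -0.020, 0.56, 0.46 and 0.13 in Rhine. Rhine lay above Danube throughout, with a difference of 1.04 (SE 0.37, adjusted p = 0.338) that was 0.61 without Rhine 1, and in Cy5 it was -0.23. mlc-4, a non-muscle myosin regulatory light chain that the group also holds, differed by 0.75 and by -0.12 in Cy5. The kinase gene unc-82, which is needed for ordered thick filaments, was lower, at -0.93 (SE 0.30, adjusted p = 0.338), with -0.49 in Cy5.

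The genes of defence against microbes included irg-1 and spp-8. Of 65 C-type lectins 4 (6.15%) were higher and 1 lower, at a median of 0.30, and in Cy5 2 were higher and 3 lower. Without Rhine 2 there were 2 higher in the ratio. clec-16 differed by 1.67 (SE 0.50, adjusted p = 0.338) and by 1.42 in Cy5. clec-241 had groups that did not overlap in the ratio (0.65) and a difference of -0.013 in Cy5. Of 38 lysozyme, saposin-like and antimicrobial peptide genes, irg-1 included, 4 (10.5%, near the 11.4% of all genes) were higher and 1 lower, at a median of 0.089 that became -0.092 after centring on the probes used and -0.16 without both widest arrays. spp-15 had log2 ratios of -0.46, -0.015, -1.06, -0.54 and -0.34 in Danube and 0.35, 0.77, 0.55, 0.57 and 0.69 in Rhine. Every Rhine array was above every Danube array, with a difference of 1.07 (SE 0.31, adjusted p = 0.338) and 0.87 in Cy5.

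Genes for the handling of foreign compounds were in use in small numbers. Of 16 cytochrome P450 genes in use, out of 77, 1 (6.25%) was higher and 1 lower in the ratio, against 11.4% and 1.44% of all probes, and in Cy5 0 were higher and 2 lower. cyp-34A9 was lower, with log2 ratios of -0.11, 1.18, 0.69, 0.47 and -0.35 in Danube and -0.48, -0.36, -0.93, -0.89 and 0.13 in Rhine. Only Danube 1 and 5 overlapped with Rhine, and the difference was -0.88 (SE 0.32, adjusted p = 0.338), with -0.28 in Cy5. cyp-33C2 was higher in the ratio, at 0.96, and differed by 0.10 in Cy5. Of 30 glutathione and UDP-glucuronosyl transferases 2 (6.67%) were higher, ugt-10 (1.26, 0.61 in Cy5) and ugt-50 (0.58, -0.35 in Cy5). Without Danube 2 none of the 30 was higher. cyp-33C2 lost the thresholds when Danube 4, Rhine 1 or Rhine 2 was left out (smallest difference 0.66, without Rhine 1). ugt-10 lost the thresholds when Danube 2, Danube 4 or Rhine 1 was left out (smallest difference 0.72, without Rhine 1). ugt-50 lost the thresholds in 6 of 10 single omissions, Danube 2, Danube 4, Danube 5, Rhine 1, Rhine 2 and Rhine 3 (smallest difference 0.47, without Danube 2). Of 59 nuclear hormone receptors 7 (11.9%, near the 11.4% of all genes) were higher and 2 lower in the ratio. In Cy5 1 was higher and 6 were lower, where 4.53% of all probes were higher and 4.49% lower. Without Danube 2 there were 3 higher in the ratio. nhr-50 had log2 ratios of 0.048, 0.83, 0.86, 0.63 and 0.75 in Danube and 0.51, -0.14, -0.65, -0.27 and -1.92 in Rhine, a difference of -1.12 (SE 0.46, adjusted p = 0.354). In Cy5 its groups did not overlap and differed by -1.39 (SE 0.51, adjusted p = 0.461). nhr-50 lost the thresholds when Danube 3 or Rhine 5 was left out (smallest difference -0.76, without Rhine 5).

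Metals and stress were covered by small groups. Of 12 genes of metal handling in use, 3 were higher (25%, against 11.4% of all genes) and 0 lower. The median of the 12 was 0.29 in the ratio and 0.30 in Cy5, where 0 passed the thresholds. Both metallothionein genes were among the 3. mtl-1 had log2 ratios of -0.51, -0.19, -0.78, -0.68 and -0.59 in Danube and 0.47, -0.32, -0.026, -0.15 and 0.40 in Rhine. mtl-2 had log2 ratios of -0.45, -0.59, 0.21, 0.65 and 0.071 in Danube and 0.49, 1.21, 0.40, 0.80 and 0.90 in Rhine. In mtl-1 Rhine 2 was inside the Danube range, and in mtl-2 the highest Danube array lay above Rhine 1 and 3. The differences were 0.63 (SE 0.22, adjusted p = 0.338) and 0.78 (SE 0.28, adjusted p = 0.338), and in Cy5 0.31 and 0.51. The other gene was zipt-17, of the ZIP family of zinc transporters, at 0.84 (0.46 in Cy5). zipt-17 lost the thresholds in 7 of 10 single omissions, Danube 1, Danube 3, Danube 5, Rhine 1, Rhine 2, Rhine 4 and Rhine 5 (smallest difference 0.71, without Rhine 4).

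Of 6 small heat shock protein genes in use 2 were higher, and the median of the 6 was 0.30 in the ratio and 0.51 in Cy5. In Cy5 0 of them passed the thresholds. Danube 1 had the highest Cy5 median of the group on any of the 10 arrays (1.575), above the highest Rhine array (Rhine 1, 1.05). hsp-12.6 had log2 ratios of -0.56, -1.03, -0.77, -0.35 and -0.40 in Danube and 0.26, -0.12, -0.24, 0.56 and 0.55 in Rhine. Its groups did not overlap, with a difference of 0.82 (SE 0.29, adjusted p = 0.338) and 0.76 in Cy5. hsp-12.3 differed by 0.94 and by 0.036 in Cy5. Among 7 HSP70 and HSP90 chaperones enpl-1, the endoplasmic reticulum member of the HSP90 family, was higher at 0.54. Of 18 antioxidant enzymes 4 were higher (22.2%, against 11.4% of all genes) and 0 lower in the ratio. In Cy5 1 was higher and 2 were lower. msra-1, which reduces oxidised methionine, differed by 1.43 (SE 0.46, adjusted p = 0.338), with 0.21 in Cy5, and thioredoxin trx-1 by 1.18, with -0.29. The superoxide dismutase gene sod-1 differed by 0.68, with 0.24 in Cy5. hsp-12.3 lost the thresholds without Rhine 4 (0.76). enpl-1 lost the thresholds when Danube 2 or Rhine 1 was left out (smallest difference 0.43, without Danube 2). sod-1 lost the thresholds in 4 of 10 single omissions, Danube 2, Danube 3, Rhine 3 and Rhine 5 (smallest difference 0.49, without Danube 3).

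Reproduction showed 1 of 5 vitellogenins (20%), 3 of 29 oocyte and eggshell genes (10.3%) and 2 of 34 sperm genes (5.88%) higher. The share over all genes was 11.4%, and 0 genes were lower in each of these groups. Without Rhine 4 none of the oocyte and eggshell genes was higher. Vitellogenins are the yolk proteins that the adult intestine makes for the oocytes. vit-3 had log2 ratios of -0.22, -2.46, -0.55, -1.46 and -0.23 in Danube and 1.10, 0.72, -0.30, 0.72 and -0.34 in Rhine. The groups overlapped, with a difference of 1.36 (SE 0.50, adjusted p = 0.338) and 0.26 in Cy5. vit-6 went the other way, at -0.27, and did not pass. egg-3, which acts in the change from oocyte to embryo, did not overlap in the ratio (0.80) and differed by -0.32 in Cy5. It had spots above the lowest grade on only 3 of 5 Danube and 3 of 5 Rhine arrays. The sperm gene ssp-33 passed in both measures, at 1.54 and 1.12. Of 11 germline and meiosis genes 0 were higher and 1 was lower. Of 22 genes of DNA replication and repair 6 (27.3%) were higher and 0 lower in the ratio, but 2 without Rhine 1. In Cy5 1 of the 22 was higher and 1 lower, at a median of 0.046. In Cy3 4 were lower, at a median of -0.61. rpa-1 and rpa-2, for subunits of the protein that coats single-stranded DNA, differed by 0.95 and 1.39 in the ratio and by 1.15 and 0.24 in Cy5. cdc-6, which loads the replicative helicase, differed by 1.502 and by 0.21 in Cy5. egg-3 lost the thresholds when Rhine 4 or Rhine 5 was left out (smallest difference 0.68, without Rhine 5). rpa-1 lost the thresholds without Rhine 1 (0.69).

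Neuronal genes were among the groups without a higher gene. Of 38 neuropeptide genes 0 were higher and 2 lower, and of 5 neuronal markers 0 were higher and cat-4 was lower. Over all 5299 genes 11.4% were higher and 74 genes lower. The medians of the neuropeptides and the neuronal markers were 0.20 and 0.25, near the 0.24 of all genes. Above 0 lay 26 of the 38 and 4 of the 5, so as groups they followed the common shift. nlp-33, a peptide of the epidermis with antimicrobial activity despite its name, had log2 ratios of 0.45, 1.37, 0.11, 1.18 and 0.070 in Danube and -1.70, -0.33, -0.21, -0.22 and 0.33 in Rhine. Rhine 5 lay within the Danube range, and the difference was -1.06 (SE 0.39, adjusted p = 0.338), with -1.10 in Cy5. nlp-80 differed by -0.86 and by -0.53 in Cy5. nlp-80 lost the thresholds in 5 of 10 single omissions, Danube 2, Danube 4, Danube 5, Rhine 1 and Rhine 3 (smallest difference -0.61, without Danube 5). rab-3, of synaptic vesicles, and egl-21, which trims neuropeptides, had differences of 0.61 and 0.64 and did not pass. Of 277 chemoreceptor genes in use, out of 1354, 27 (9.75%) were higher and 7 lower, at a median of 0.14 that became -0.039 after centring on the probes used. In Cy5 7 of them were higher and 17 lower, where 4.53% of all probes were higher and 4.49% lower. Of 14 genes of the insulin and dauer pathway 0 passed in either direction.

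Genes from the study's own discussion were chosen on arrays of this series, bec-1 of them for Elbe sediment, so their values are given as a description. The filter left out tre-2, cyp-35A5, T05H4.4, clec-47, bec-1 and tre-3, which lacked good spots on enough arrays. tre-2, a trehalase gene, had log2 ratios of -0.86, 0.81, 0.90, -1.72 and 0.60 in Danube and -1.16, -1.41, -0.87, -1.39 and -1.46 in Rhine. The Rhine arrays lay close together and Danube was split, with 3 arrays above 0 and Danube 4 below all of Rhine. cyp-35A5 had log2 ratios of 0.13, -0.23, -1.45, -0.33 and 0.62 in Danube and 1.86, -0.12, 0.72, 0.56 and 0.27 in Rhine, overlapping in the ratio. In Cy5 its Rhine arrays were all above the Danube arrays. For clec-47 the log2 ratios were 1.04, 0.57, 2.75, 0.92 and 2.14 in Danube and -0.83, 2.84, -0.18, -0.60 and 1.599 in Rhine, whereas in Cy5 all Rhine arrays were below all Danube arrays, the highest Rhine value being 0.39 and the lowest Danube value 0.48. bec-1, the autophagy gene of the beclin family, ranged from -3.06 to 0.44 in Danube and from -1.03 to 1.44 in Rhine. In T05H4.4 Rhine 1 and 4 (3.57 and 4.66) stood far above the other 8 arrays, and in tre-3 the groups overlapped. In the fit over all 19084 probes the adjusted p of these 6 genes ran from 0.728 to 0.898.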

How the data were processed

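Whole worms from Danube, Elbe and Rhine sediment were profiled on 15 2-colour oligonucleotide arrays, 5 per sediment. The authors deposited the output of BlueFuse 3.4, which gives each spot an intensity per channel, linear and not normalized. Beside them the authors deposited a confidence score from 0 to 1 and a grade for each spot, the lowest grade standing for a score under 0.05 per the file headers. A deposited value table of linear ratios, which the methods describe as print-tip Lowess followed by median polishing per chip and gene, names no genes. Of its 18653 rows, 18575 matched the Cy5 signal after print-tip loess over all spots (1 minus r under 0.001 over 15 arrays), 0 matched Cy3 and 0 the ratio. It was centred on medians of about 1 and served as an alternative only.

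Of 22176 spots, 19806 were gene spots and 2370 control or empty spots, which had weight 0 in the loess (span 0.3, 4 iterations) and were then left out. No background was subtracted. Replicate spots were averaged by probe name. Probes needed good spots (above the lowest grade) on 3 or more of 5 arrays of every sediment, which kept 5347 and left out 13737. Of those used, 5079 were matched to RefSeq symbols through locus tags, and for 46 genes with more than 1 probe the brightest stood for the gene in a group. Cy5 alone is the mean log2 signal plus 0.5 times the log2 ratio after loess, and Cy3 alone is the log2 signal before loess, each minus the array's median.

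Rhine was tested against Danube with limma 3.58.1 (lmFit, eBayes) in R 4.3.3 over all 15 arrays, with Benjamini-Hochberg adjustment, and the scripts were tested on simulated data. Array medians were compared by exact two-sided permutation. The number of arrays limits the precision. The comparison, the 36 gene lists and the genes named were chosen with earlier results of these data known. Named were up to 10 higher and 10 lower genes past the thresholds with groups apart in ratio and Cy5, up to 3 genes by p in each of 26 lists, genes of the paper's discussion, and, after seeing the data, 10 higher and 10 lower past the thresholds in both measures. Alternatives covered normalization, centring, scaling, an offset of 50, spot filters, array weights, blocks and arrays left out. They also covered Cy5 alone, the value table and a t-test per probe, where the study's methods name a one-way ANOVA. Single channels before or after loess, loess over all spots and the value table over the probes used were added after seeing the data.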

Additional observations from a re-analysis of the deposited data

Results flagged for a closer look

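In 250 groups of 5 arrays, 22 held an array whose gap to its nearest neighbour was more than 0.71 of the range of the group (Dixon's criterion). Chance marks about 1 in 20 groups, and groups that share an array are not independent. Danube 2 stood apart in the median log2 ratio of the probes used (-0.24, others -0.018 to 0.070), and Rhine 1 in the median Cy3 intensity (1586, others 986 to 1155). Danube 2 also stood apart in the medians of 3 function groups, translation factors (-0.37), ubiquitin ligase adaptors (-0.55) and HSP70 and HSP90 chaperones (-0.90). Rhine 1 stood apart for translation factors as well (0.59), and Danube 4 for small cytosolic ribosomal proteins (0.44).

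Among single genes, Danube 2 was far below the other Danube arrays for rpl-8 (-1.84) and hsp-110 (-1.82) and above them for flp-27 (0.80). Danube 4 was low for cox-5A (-1.20), cyp-33C2 (-1.05), egl-21 (-2.98) and calu-1 (-1.85), Danube 3 for cdc-6 (-1.64), and Danube 1 for nhr-50 (0.048) and zipt-17 (0.022). Rhine 1 was far above the other Rhine arrays for ife-5 (5.00, others -0.49 to 0.12), unc-15 (2.44) and mlc-4 (1.07), Rhine 4 for gst-25 (5.77, others 0.15 to 1.63) and Rhine 5 for fbxb-58 (0.83). Without Danube 4 the difference of egl-21 was 0.0066 instead of 0.64, and without Rhine 4 that of gst-25 was 0.55 instead of 1.57.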

How the results depend on the processing

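At most 6 probes passed an adjusted p under 0.05 in any setting run. The settings that moved the 608 higher and 77 lower probes or the median of 0.24 are given here as higher count, lower count and median. Median centring gave 1766, 45 and 0.80. A single loess curve per array gave 755, 64 and 0.39. Loess on the probes used gave 320, 177 and 0.062, and centring on them 317, 192 and 0.062. Without a filter (19084 probes) the values were 801, 487 and 0.10, and 62.2% of the probes past the thresholds were higher. Fewer probes were tested with good spots on all 15 arrays (362 higher, 29 lower, 6 past adjustment), a confidence of at least 0.5 (84, 4, with 4 past adjustment) and without the dimmest 1783 probes (510, 45). Array weights gave 362, 86 and 0.15, only the 10 Danube and Rhine arrays 413, 65 and 0.24, the methods' t-test 328 and 52 (0 after Benjamini-Hochberg adjustment), the scan image run as a block 66, 52 and 0.17, and omission of both widest arrays 336, 96 and 0.14. Cy5 alone gave 242, 240 and -0.011, with 1 past adjustment. The deposited value table gave 669, 656 and -0.024 over 18266 probes, and 217, 233 and -0.015 over 5100 of the probes used, with 1 past adjustment. Scaling between arrays, the offset, the loess over all spots and the filter on Danube and Rhine alone kept both counts within 1.5 times.

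With single arrays left out, the higher count ran from 394 (without Danube 2) to 664 (without Danube 1), the lower count from 74 to 99 and the median from 0.17 to 0.28. In Cy3 the higher count ran from 26 (without Rhine 1) to 58 (without Danube 1). Cy3 after loess gave 69 higher and 413 lower. Without both widest arrays 569 were lower in Cy3 and 136 higher in Cy5. The difference of the array medians was then 0.099, with an exact permutation p of 0.0857, against 0.0238 with all 10 arrays. Neither p was adjusted over the array measures (0.0952 with all 10). With fewer arrays the smallest p that the test allows is larger, so these p-values cannot be compared directly. The main fit did not pair arrays by replicate number. Deviations of same-numbered arrays from their group means correlated by -0.020 to 0.13, against at most 0.041 for arrays with different numbers. Such low correlations cannot tell whether same-numbered arrays shared an exposure or hybridisation round. With the replicate block 604 probes were higher and 86 lower, with 0 past adjustment, at a median of 0.24.

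Of 91 named genes in use, 20 changed sign in some setting. In Cy5 alone these were rps-3 (-0.11), pbs-5 (-0.068), rpn-8 (-0.39), isp-1 (-0.036), clec-241 (-0.013), ugt-50 (-0.35), trx-1 (-0.29), egg-3 (-0.32), flp-27 (-0.45), egl-21 (-0.16), unc-15 (-0.23), mlc-4 (-0.12) and cpz-2 (-0.15). With the scan image run as a block they were aagr-4 (-0.16), clec-16 (-0.023), hsp-4 (-0.31) and ssp-36 (-0.79), and with median centring C02E7.7 (0.48), vit-6 (0.62) and C17F4.7 (0.13). The causes were not tested. Of the 79 named genes past the thresholds, 55 stayed past them with each array left out in turn.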
